A study of Mus musculus with 2 samples.

Results

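The genes described are 8 members of iron and heme handling, chosen by name as rows of a single-cell count table of mouse optic nerve: the ferritin chains Fth1 and Ftl1, the heme genes Slc48a1, Hmox1 and Blvrb, and the iron transport genes Slc11a1, Slc40a1 and Tfrc. They are 8 of 31053 gene rows, and all 8 had at least 1 UMI in each library. UMIs are unique molecular identifiers, each standing for 1 captured transcript. The injured group was 1 library from wildtype mice of strain 129S1/SvlmJ whose optic nerve had been crushed at 8 weeks of age and taken 2 weeks later, at 10 weeks. The uninjured group was 1 library from wildtype 129S1/SvlmJ mice of 10 weeks without crush. These ages are those of the design text, and the source label of both groups gives P56. Both groups held males and females. The cells were labelled microglia or macrophages, and neither the number of animals nor the way in which cells were selected is given in the sources used here.

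Iron enters most cells as transferrin taken up by the transferrin receptor, Tfrc. Macrophages also obtain it by engulfing dying cells, myelin or red blood cells. Heme from that debris leaves the phagolysosome through Slc48a1 (HRG1) and is opened by heme oxygenase 1, Hmox1, into iron, carbon monoxide and biliverdin. Slc11a1 (NRAMP1) moves iron out of the phagosome, ferroportin (Slc40a1) moves it out of the cell, and the remainder is stored in ferritin. Ferritin is a hollow shell of heavy chains, encoded by Fth1, which oxidise the entering iron, and light chains, encoded by Ftl1, which favour the formation of the mineral core.

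Ferritin, ferroportin and transferrin receptor transcripts carry iron-responsive elements, short hairpins bound by the iron regulatory proteins. At the 5' end of a transcript such binding blocks translation, and at the 3' end it stabilises the RNA. The hairpins are shown because they join 4 of the 8 genes to a common sensor and because RNA levels alone do not report this control of translation. A match was defined on the transcript strand as a C, 5 bases, a 6-base loop of CAGTG followed by A, C or T, and 5 bases that pair with the first 5, G-T pairs allowed. Such a match was present in the UTRs of Fth1, Ftl1, Slc40a1 and Tfrc, and of 123 of 21877 mouse genes with protein-coding transcripts, 0.562%. No such match was found for Hmox1, Slc11a1, Blvrb or Slc48a1. The 7 matches are printed 5' to 3' with the loop in capitals, from GENCODE vM21 transcripts on mm10.
Fth1, 5' UTR, chr19:9982733-9982759, plus strand: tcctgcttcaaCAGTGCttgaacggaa
Ftl1, 5' UTR, chr7:45459780-45459806, minus strand: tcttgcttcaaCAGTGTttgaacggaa
Slc40a1, 5' UTR, chr1:45925466-45925492, minus strand: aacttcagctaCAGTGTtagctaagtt
Tfrc, 3' UTR, chr16:32631220-32631246, plus strand: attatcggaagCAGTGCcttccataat
Tfrc, 3' UTR, chr16:32631599-32631625, plus strand: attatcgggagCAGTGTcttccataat
Tfrc, 3' UTR, chr16:32631664-32631690, plus strand: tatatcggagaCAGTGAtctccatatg
Tfrc, 3' UTR, chr16:32631711-32631737, plus strand: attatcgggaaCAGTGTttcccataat
The Fth1 and Ftl1 elements have the same 5 bases on either side of the loop, and the 4 Tfrc elements lie within one 3' UTR.

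There were 727 injured cells with 3697992 UMIs in all, 42.3 times the total of the uninjured library, whose 51 cells had 87499 UMIs. The median injured cell had 1123 UMIs and the median uninjured cell 888, and no cell barcode was shared. All 11 microglia and macrophage markers were seen in both libraries, with a summed level of 34073 CPM (UMIs scaled to a common library total) for injured and 24995 CPM for uninjured nerves. At least 1 of C1qa, C1qb, C1qc, Csf1r, Tyrobp and Fcer1g was present in 98.1% of injured and 92.2% of uninjured cells. All 7 oligodendrocyte markers were also seen in both, summing to 3521 CPM after crush, against 9326 CPM in uninjured nerves. One of them, Trf, encodes transferrin and is itself an iron gene. Trf gave 8798 of the 13021 marker UMIs in the injured library and 102 of 816 in the uninjured library. Cells with over 1% of their UMIs from the 7 oligodendrocyte markers were 107 of 727 injured cells and 25 of 51 uninjured cells. The 7 red blood cell markers summed to 18.7 CPM in the injured library, with Alas2 at 0, and to 117053 CPM in the uninjured library, where a single cell of 11100 UMIs held 10194 haemoglobin UMIs. Each group being 1 library, no difference could be checked in replicates or tested. Intervals in parentheses are exact 95% intervals and cover counting error only.

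Of the 8 members the ferritin light chain had the highest ratio. Ftl1 was 4.67-fold higher in the injured library, whereas Fth1, far more abundant in the uninjured library than Ftl1, was 1.45-fold higher. Hmox1 was also higher, and Slc48a1 and Tfrc were lower, all 3 on 6 or fewer uninjured UMIs. Slc40a1, Slc11a1 and Blvrb lay within 1.5-fold. A gene is called higher or lower where the ratio of its levels, with 10 CPM added to each, reached 1.5-fold. By this rule 2 members, Ftl1 and Hmox1, were higher, while 32.8% of the 4021 genes detected in 10% or more of either library's cells were higher. A further 2 members, Slc48a1 and Tfrc, were lower, while 21.8% of those genes were. Of the 8 members 6 passed that filter on cells, and Slc40a1 and Tfrc did not. The median log2 ratio was 0.24 over the 8 members and 0.17 over all 4021 genes. The log2 ratio of Ftl1, 2.22, was reached by 3.9% of them. Relative to the median of all genes compared, Ftl1 was higher by 2.04 and Fth1 by 0.36 on the log2 scale. The median share of mitochondrial UMIs, a sign of RNA quality, was 1.10% in injured and 5.93% in uninjured cells, and its part in these differences was not tested.

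**Figure D1:**
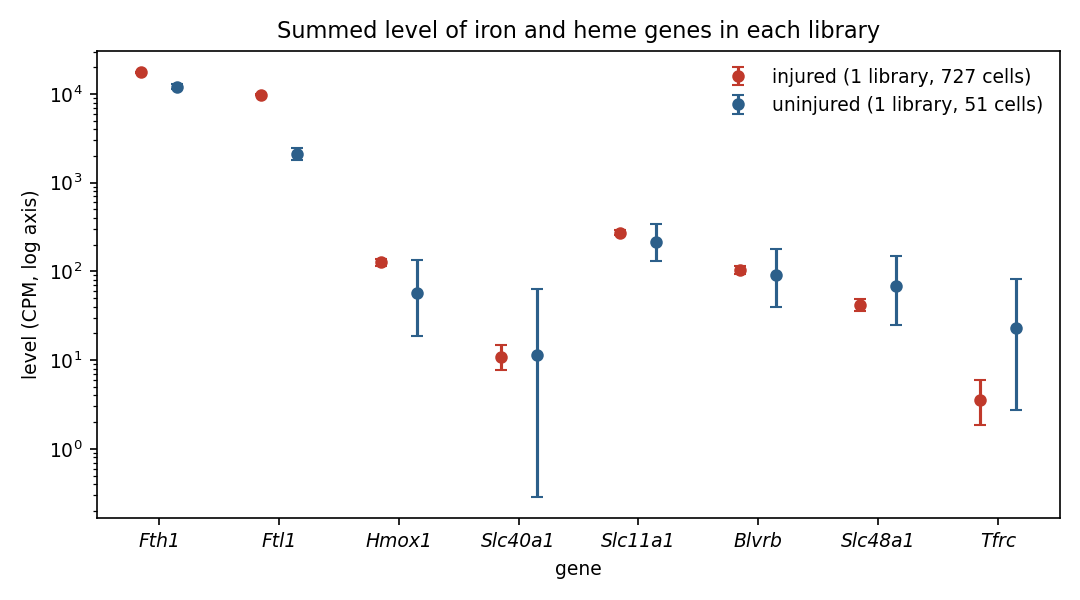
Summed level of each member in the injured library (red, left of each pair) and the uninjured library (blue, right of each pair), in CPM on a log axis. Points are levels and bars exact 95% Poisson intervals, 1 library per group. The intervals are apart for Fth1 and Ftl1. For the other 6 genes the wide uninjured bars rest on 1 to 19 UMIs.

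The Fth1 gene spans positions 9980598 to 9985098 of chromosome 19, plus strand, and Ftl1 positions 45457944 to 45459884 of chromosome 7, minus strand (mm10, GENCODE vM21; all 8 members are protein-coding). Fth1 had 17566 CPM in the injured library (17431 to 17701, 64957 UMIs), against 12137 CPM in the uninjured library (11418 to 12890, 1062 UMIs), a ratio of 1.45 (1.36 to 1.54), or 1.28 (1.21 to 1.36) without the haemoglobin-rich uninjured cell. It was seen in 718 of 727 injured and in 50 of 51 uninjured cells. Fth1 was thus among the most abundant transcripts of both libraries, ranking 3 of 14303 genes with a UMI in the injured library and 7 of 8124 in the uninjured one.

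Ftl1 had 9811 CPM in the injured library (9710 to 9912, 36280 UMIs), against 2103 CPM in the uninjured library (1810 to 2430, 184 UMIs), a ratio of 4.67 (4.04 to 5.42). Without the haemoglobin-rich uninjured cell the ratio was 4.44 (3.81 to 5.19). Ftl1 was seen in 701 of 727 injured cells and 35 of 51 uninjured cells, and it ranked 10 in the injured and 59 in the uninjured library. Among the 124 genes with at least 100 uninjured UMIs, for which counting error is small, Ftl1 had the fourth highest ratio, rank 4, and Fth1 had rank 22. A separate row for the pseudogene Ftl1-ps1 held 240 injured and 3 uninjured UMIs, and how reads were divided between the parent and its copy cannot be told from the counts.

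The share of cells with Ftl1 also differed at equal depth, set by a single random draw of UMIs from each cell. With every cell thinned to 500 UMIs, for which 2 uninjured cells were too shallow, Ftl1 was found in 90.6% of 727 injured cells (88.3 to 92.7), against 51.0% of 49 uninjured cells (36.3 to 65.6). Without thinning these shares were 96.4% of injured and 68.6% of uninjured cells. Thinned Ftl1 UMIs per cell were 4.97 in the injured and 1.14 in the uninjured library, a ratio of 4.35 (3.34 to 5.77). Thinned Fth1 was found in 96.3% of the injured and in 93.9% of the uninjured cells, with a ratio of UMIs per cell of 1.46 (1.31 to 1.64).

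At least 2 Cd3 or T cell receptor genes were carried by 5 injured and 0 uninjured cells, the 5 with a median of 5387 UMIs. Fth1 was seen in 4 and Ftl1 in all 5 of these cells. T cells also make ferritin and no doublet caller was run, so free RNA, doublets and ferritin of their own cannot be told apart here. Their levels were low, with 1791 CPM of Fth1 and 689 CPM of Ftl1. Ferritin was 0.248% of their UMIs and 2.74% of those of the injured library. The other 6 members had 0 UMIs in these 5 cells, which allows up to 52.2% of such cells to hold one.

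Ferritin was then followed across depth, from the shallowest to the deepest cells. Ftl1 stood in the injured library at 9949 CPM in cells under 600 UMIs, 10702 CPM from 600 to under 1000, 8727 CPM from 1000 to under 5000, 7299 CPM from 5000 to 15000 and 10388 CPM above 15000. In the uninjured library it stood at 2324, 2971, 1595 and 2198 CPM in the first 4 of these classes, and no uninjured cell had over 15000 UMIs. The ratios were 4.28, 3.60, 5.47 and 3.32, and the lowest bound of their intervals was 2.57. Fth1 ratios in the same 4 classes were 1.06 (0.881 to 1.27), 1.62 (1.39 to 1.90), 1.22 (1.10 to 1.35) and 1.19 (1.07 to 1.33). The 4 uninjured cells of 5000 to 15000 UMIs include the haemoglobin-rich cell. Without it their Fth1 level was 13891 CPM, against 11970 CPM in injured cells of that class, in the other direction. Their Ftl1 level was then 2577 CPM, still below the 7299 CPM of the injured cells. Ftl1 was therefore higher in injured cells in each depth class that both libraries filled, and the Fth1 ratio passed 1.5 only from 600 to under 1000 UMIs.

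**Figure D2:**
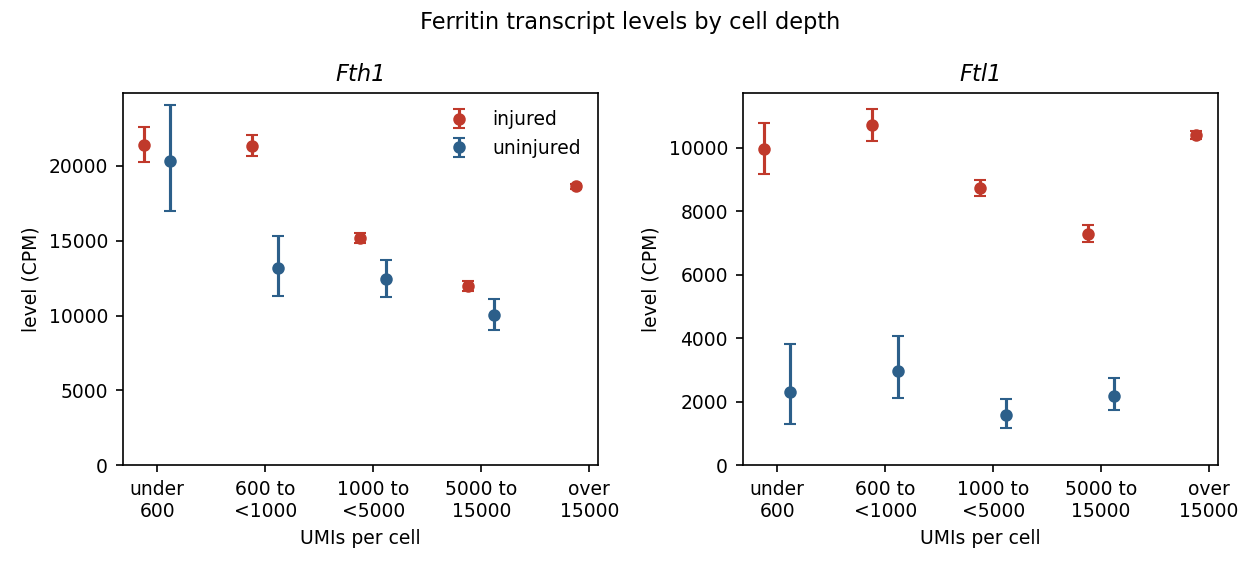
Level of Fth1 (left panel) and Ftl1 (right panel) in CPM by depth class of the cell, for the injured library (red) and the uninjured library (blue). Points are summed levels and bars exact 95% Poisson intervals. In each of the 4 classes held by both libraries the Ftl1 intervals are apart, and no uninjured cell had over 15000 UMIs.

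The cells were also divided by depth and by Malat1, a nuclear long noncoding RNA: deep cells of at least 5000 UMIs (144 injured, 4 uninjured), shallow Malat1-rich cells with at least 1% of UMIs from Malat1 (91 injured, 17 uninjured) and shallow Malat1-poor cells (492 injured, 30 uninjured). Within a factor of 2 of the divide were 59 injured cells and 1 uninjured cell, all shallow, so these are ranges and not cell types. Ftl1 was higher in the injured library in each class. In deep cells it had 9946 CPM after crush, against 2198 CPM in uninjured nerves, a ratio of 4.52 (3.63 to 5.72). In Malat1-rich cells it had 2945 CPM after crush, against 742 CPM in uninjured nerves, a ratio of 3.97 (2.52 to 6.65). In Malat1-poor cells it had 11236 CPM after crush, against 3314 CPM in uninjured nerves, a ratio of 3.39 (2.74 to 4.24).

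Fth1 did not keep its direction across these classes. In deep cells it had 17691 CPM after crush, against 10018 CPM in uninjured nerves, a ratio of 1.77 (1.59 to 1.96). That value rested on the haemoglobin-rich uninjured cell, which held 15 Fth1 and 15 Ftl1 UMIs, 20 UMIs of Alas2, the red cell enzyme of heme synthesis, and none of C1qa, C1qb or C1qc. Without this cell the deep ratio of Fth1 was 1.27 (1.15 to 1.42) and that of Ftl1 was 3.86 (3.02 to 5.01), from 3 uninjured cells. In Malat1-poor cells Fth1 had 20372 CPM after crush, against 18497 CPM in uninjured nerves, a ratio of 1.10 (1.01 to 1.21). In Malat1-rich cells it had 6412 CPM after crush, against 8667 CPM in uninjured nerves, a ratio of 0.740 (0.640 to 0.858). With the Malat1 divide at 0.5% of UMIs in place of 1%, the log2 ratio in Malat1-rich cells was -0.02.

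The libraries also differed in oligodendrocyte marker transcripts, and Fth1 moved with them. The markers include Trf, and the split of cells by these markers was not repeated without Trf. Among cells with over 1% of UMIs from the 7 oligodendrocyte markers, Fth1 had 26038 CPM over 107 injured cells and 18656 CPM over 25 uninjured cells. Among the remaining cells it had 17291 CPM over 620 injured cells and 9626 CPM over 26 uninjured cells. The Fth1 ratio was 1.80 (1.66 to 1.95) in those remaining cells, past 1.5-fold, against 1.45 over all cells. Without the haemoglobin-rich cell, which is among the 26, it was 1.52 (1.40 to 1.65), just past 1.5-fold. Ftl1 differed less between the marker-rich and the remaining cells. It had 8524 CPM in the marker-rich and 9852 CPM in the remaining injured cells, and 2055 CPM in the marker-rich and 2121 CPM in the remaining uninjured cells. Its ratio in the remaining cells was 4.64 (3.92 to 5.54), or 4.31 (3.60 to 5.20) without the haemoglobin-rich cell.

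The balance of the 2 chains differed between the libraries. Fth1 took 64.2% of ferritin UMIs in the injured library (63.9 to 64.5, 101237 ferritin UMIs), against 85.2% in the uninjured library (83.1 to 87.2, 1246 ferritin UMIs). Expressed as a ratio, there were 1.79 Fth1 UMIs per Ftl1 UMI in the injured and 5.77 in the uninjured library. Each UMI of this chemistry is 1 tag at the 3' end of a transcript, so the 2 genes were compared without a correction for length. Both chains together took 2.74% of all injured and 1.42% of all uninjured UMIs.

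The same order held in each class of cells. The Fth1 share was 64.0% in injured and 82.0% in uninjured deep cells (78.1 to 85.5 in the uninjured). It was 68.5% in injured and 92.1% in uninjured Malat1-rich cells (66.2 to 70.8 and 88.0 to 95.2). It was 64.5% in injured and 84.8% in uninjured Malat1-poor cells (63.7 to 65.2 and 81.6 to 87.7). By depth, from under 600 to 5000 to 15000 UMIs, it was 68.3%, 66.6%, 63.5% and 62.1% in injured cells and 89.7%, 81.6%, 88.6% and 82.0% in uninjured cells. Cells rich in oligodendrocyte markers had higher Fth1 shares, 75.3% in injured and 90.1% in uninjured cells, and without them the shares were 63.7% in injured and 81.9% in uninjured cells. In the 396 injured and 11 uninjured Malat1-poor cells that were not rich in those markers, the shares were 61.8% (60.9 to 62.6) and 74.7% (67.2 to 81.3). There the Ftl1 ratio was 2.70 (1.98 to 3.79), below the 3.39 of all Malat1-poor cells. The part of oligodendrocyte transcripts in the remaining difference was not tested.

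Cell by cell, the balance was read where a cell held at least 20 ferritin UMIs, in 489 injured and 21 uninjured cells. The Fth1 share in the injured cells had a median of 65.1%, quartiles of 55.8% and 74.7% and a range of 13% to 100%. In the uninjured cells it had a median of 89.5%, quartiles of 76.0% and 100% and a range of 50% to 100%. The haemoglobin-rich cell was the lowest of them, at 50%, and the next lowest had 70.4%. Shares over 75% were found in 115 injured cells (23.5%) and 16 uninjured cells (76.2%), and shares under 50% in 71 injured cells (14.5%) and 0 uninjured cells. The distributions overlapped, and cells with mostly heavy chain were present in both libraries, while all cells with more Ftl1 than Fth1 UMIs, among those with at least 20 ferritin UMIs, came from the injured library.

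**Figure D3:**
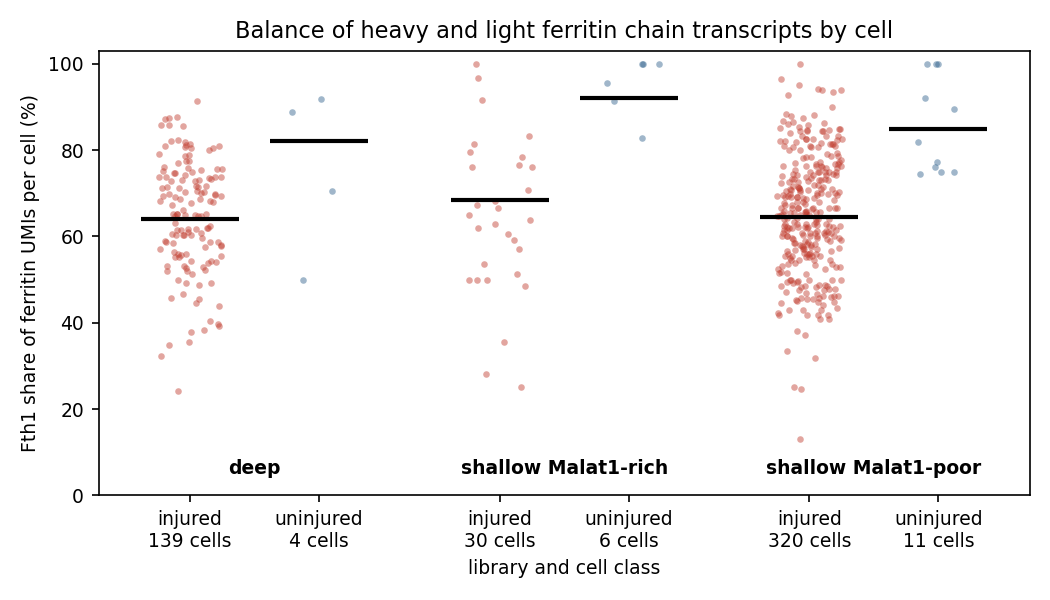
Fth1 share of ferritin UMIs in single cells with at least 20 ferritin UMIs, in percent, for deep, shallow Malat1-rich and shallow Malat1-poor cells of the injured library (red, left) and the uninjured library (blue, right). Each point is a cell, and black lines mark the share over the summed UMIs of all cells of the class, 64.0%, 68.5% and 64.5% in injured and 82.0%, 92.1% and 84.8% in uninjured cells.

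The spread of the balance over cells was wider than sampling of UMIs gives. Among cells with at least 20 ferritin UMIs the variance of the share was 4.20 times the binomial variance in the injured and 4.16 times in the uninjured library. The uninjured value includes the haemoglobin-rich cell, and it was not computed without that cell. In the 99 injured cells of over 15000 UMIs, where sampling noise is least, it was 36.1 times, and the share ran from 35.6% to 91.4% with quartiles of 58.2% and 74.6%. The share was nearly unrelated to depth in the 144 deep injured cells (Pearson r = 0.08 with log2 total UMIs). The 4 deep uninjured cells had shares of 91.9%, 88.7%, 70.4% and, in the haemoglobin-rich cell, 50%. Each of the 3 others held 92 to 172 UMIs of C1qa, C1qb and C1qc.

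Within the deep injured cells both chains varied widely. Fth1 ran from 1671 to 59586 CPM with a median of 14406 CPM, and the cell at the 90th percentile had 4.05 times the level of the cell at the 10th. Ftl1 ran from 186 to 46397 CPM with a median of 7255 CPM, and the same comparison gave 6.18 times. Levels of the 2 chains went together over the 144 cells (r = 0.66 on log2 UMIs per 10000, or 0.57 over 141 cells without the 3 that carried T cell genes). These cells share a library and each value shares its cell's total, and Fth1 also followed their depth (r = 0.53 with log2 total UMIs, against 0.37 for Ftl1).

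**Figure D4:**
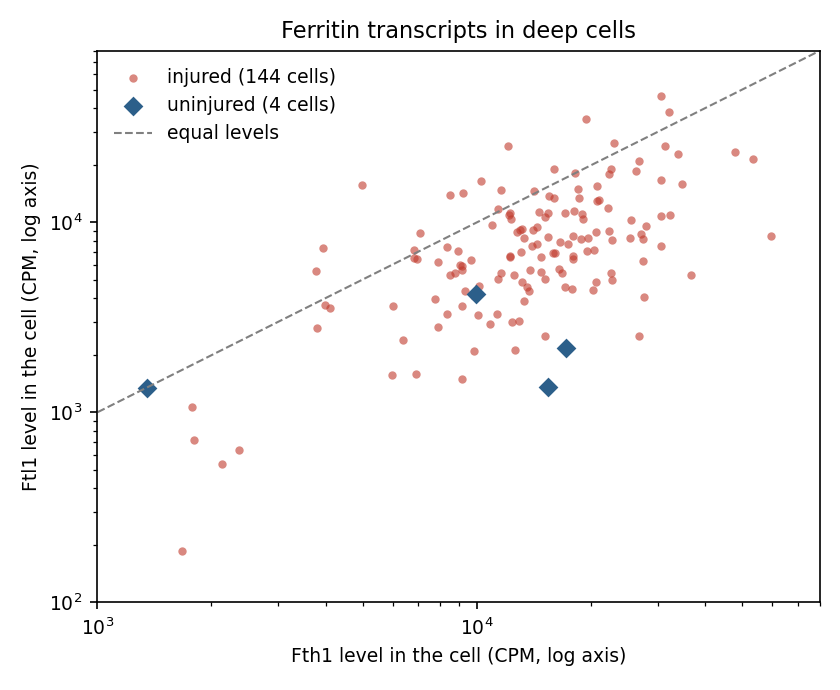
Level of Ftl1 against level of Fth1 in single cells of at least 5000 UMIs, in CPM on log axes, for 144 injured cells (red points) and 4 uninjured cells (blue diamonds). The dashed line marks equal levels. Of the uninjured cells 3 lie far under the line, with shares of 70.4% to 91.9% Fth1, and the haemoglobin-rich cell lies on it at 50%.

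Genes were ranked by their correlation with each ferritin chain over the 144 deep injured cells, among 5261 genes seen in at least 25% of them. The 5 most like Ftl1 were Fabp5, a fatty acid binding protein (r = 0.70), Cstb, a cathepsin inhibitor (0.69), Fth1 (0.66), Lyz2, lysozyme (0.64), and Lgals3, galectin 3 (0.64). The 5 most like Fth1 were Ftl1 (0.66), Fabp5 (0.55), Gabarap, an autophagy protein (0.53), Rgs10, a regulator of G protein signalling (0.52), and the cathepsin Ctss (0.52). Without the 3 cells with T cell genes the values for Rgs10 and Ctss were 0.38 and 0.33, and that for Fabp5 was 0.53. Fabp5, Cstb, Lyz2 and Lgals3 were themselves higher in the injured library. Fabp5 had 1419 CPM after crush, against 68.6 CPM in uninjured nerves, Cstb had 453 CPM after crush, against 34.3 CPM in uninjured nerves, and Lyz2 had 13874 CPM after crush, against 2434 CPM in uninjured nerves. Lgals3 had 1039 CPM in injured cells and 0 UMIs in uninjured ones. That level was 30.3 times a floor of 3 counts over the uninjured library, and the interval of the ratio began at 24.6.

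The balance itself had its own correlates, ranked after the balance had been seen. Cells with a high Fth1 share tended to hold more Selplg, the P-selectin ligand (r = 0.41), Cd52 (0.38), Gdi2 (0.36), Tmem176a (0.35) and Hfe (0.34). Cells with a low share tended to hold more Ahnak2 (-0.49), Myof (-0.44), Lgals3 (-0.43), Gpnmb (-0.42) and Prdx1, a peroxiredoxin (-0.41). Selplg stood at 217 CPM after crush, against 811 CPM in uninjured nerves, 3.73-fold lower (2.89 to 4.76). Gpnmb, a lysosomal glycoprotein of lipid-laden macrophages, had 1252 CPM in injured cells and 0 UMIs in uninjured ones. That level was 36.5 times a floor of 3 counts over the uninjured library, and the interval of the ratio began at 29.7. Cd52 did not share the direction of Selplg, with 1566 CPM after crush, against 617 CPM in uninjured nerves. Neither did Tmem176a, with 1110 CPM after crush, against 766 CPM in uninjured nerves. Gdi2 had 476 CPM after crush, against 446 CPM in uninjured nerves, and Hfe had 0 uninjured UMIs.

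Of the heme genes, Hmox1 (chromosome 8, 75093621 to 75100589, plus strand) was the most abundant in the injured library. It had 126 CPM in the injured library (115 to 138, 466 UMIs), against 57.1 CPM in the uninjured library (18.6 to 133, 5 UMIs), a ratio of 2.21 (0.938 to 6.82). The interval includes no difference, and 3 of the 5 uninjured UMIs came from a single deep cell. The share of injured cells with Hmox1 was 25.2% (22.1 to 28.5), and the uninjured share was 5.88% (1.23 to 16.2). Thinned to 500 UMIs the injured share was 6.33% (4.67 to 8.35) and the uninjured share 2.04% (0.0517 to 10.9), which overlap. In deep cells it had 128 CPM after crush, against 83.5 CPM in uninjured nerves, a ratio of 1.53 (0.519 to 7.45), or 1.06 (0.359 to 5.15) without the haemoglobin-rich cell.

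Within the injured library Hmox1 was scattered. Among the 144 deep cells 38 held none, the median was 83.2 CPM and the highest cell had 772 CPM. By depth class its level was 116, 165, 105, 87.5 and 134 CPM from the shallowest to the deepest cells, without a steady trend. The 5 genes most like it were Cstb (r = 0.47), the lipid droplet protein Plin2 (0.43), Prdx1 (0.43), the cathepsin Ctsl (0.41) and Capg (0.41). Its correlation with Ftl1 was 0.39 and with Fth1 0.18. Its correlation with haemoglobin UMIs was -0.13, and the injured library held few of those.

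Slc48a1 (chromosome 15, 97778520 to 97792692, plus strand) had 42.2 CPM in the injured library (35.8 to 49.3, 156 UMIs), against 68.6 CPM in the uninjured library (25.2 to 149, 6 UMIs). It was 1.63-fold lower (0.588 to 3.62) and was seen in 102 injured and 3 uninjured cells. Of the 6 uninjured UMIs 3 were in the haemoglobin-rich cell. Without that cell the levels were 42.2 CPM after crush, against 39.3 CPM in uninjured nerves, a ratio of 1.07 (0.361 to 5.27), and the gene no longer counted as lower. Among deep injured cells Slc48a1 correlated with Ftl1 at 0.41, its highest value among the members.

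Blvrb (chromosome 7, 27447978 to 27466144, plus strand), which encodes biliverdin reductase B, had 104 CPM in the injured library (94.2 to 115, 386 UMIs), against 91.4 CPM in the uninjured library (39.5 to 180, 8 UMIs). The ratio was 1.14 (0.574 to 2.66). A Blvrb UMI was present in 24.3% of the injured cells and in 11.8% of the uninjured ones. Its injured level was even over depth, between 95.1 and 112 CPM in all 5 classes.

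Slc11a1 (chromosome 1, 74375195 to 74386062, plus strand), the phagosomal metal exporter, had 273 CPM in the injured library (256 to 290, 1008 UMIs), against 217 CPM in the uninjured library (131 to 339, 19 UMIs). The ratio was 1.26 (0.800 to 2.09), and the gene was the most abundant member after the ferritins in both libraries. A Slc11a1 UMI was present in 34.7% of the injured cells and in 23.5% of the uninjured ones. Thinned to 500 UMIs these shares were 11.1% (8.95 to 13.7) and 2.04% (0.0517 to 10.9), which overlap, on 89 and 1 UMIs. The interval of the ratio, 1.05 to 240, lay above 1 in this single random draw. With all UMIs kept and equal weight of cells the log2 ratio was 0.45, against 2.33 thinned. Slc11a1 was present in 130 of the 144 deep injured cells and in 3 of the 4 deep uninjured cells, all but the haemoglobin-rich one. In deep cells it had 283 CPM after crush, against 250.4 CPM in uninjured nerves, a ratio of 1.13 (0.592 to 2.48). Without the haemoglobin-rich cell the uninjured level was 362 CPM and the ratio was 0.780 (0.409 to 1.71), in the other direction.

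Slc40a1 (chromosome 1, 45908068 to 45926523, minus strand), the iron exporter ferroportin, was scarce. It had 10.8 CPM in the injured library (7.73 to 14.7, 40 UMIs) and 11.4 CPM in the uninjured library (0.289 to 63.7, 1 UMI), and it was seen in 30 injured cells and 1 uninjured cell. Tfrc (chromosome 16, 32608920 to 32632794, plus strand) was scarcer still in injured cells, with 3.52 CPM in the injured library (1.87 to 6.01, 13 UMIs in 9 cells), against 22.9 CPM in the uninjured library (2.77 to 82.6, 2 UMIs in 2 cells). The ratio of 0.154 has an interval of 0.0348 to 1.40, so a lower Tfrc level was not detectable at this depth. In 140 of the 144 deep injured cells Tfrc was at 0, and ferroportin was at 0 in 123.

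The members were also compared between shallow injured cells divided by Malat1. Malat1-poor cells had 20372 CPM and Malat1-rich cells 6412 CPM of Fth1, a ratio of 3.18 (2.99 to 3.38). The ratio for Ftl1 was 3.82 (3.49 to 4.18), that for Hmox1 6.58 (2.48 to 24.7, 85 and 4 UMIs), that for Blvrb 3.51 (1.53 to 9.90, 68 and 6 UMIs) and that for Slc48a1 3.92 (1.25 to 19.9, 38 and 3 UMIs). The storage and heme genes were thus all higher in Malat1-poor cells. The share of all genes higher there was not computed, so whether these members differ from genes at large cannot be told. Slc11a1 and Slc40a1 were not. The first had 218 CPM in Malat1-poor and 278 CPM in Malat1-rich cells, a ratio of 0.784 (0.559 to 1.11). Ferroportin had 3.52 CPM in Malat1-poor and 39.7 CPM in Malat1-rich cells, a ratio of 0.0885 (0.00897 to 0.465) on 2 and 7 UMIs. Tfrc had 6 UMIs in Malat1-poor and 0 in Malat1-rich cells.

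**Figure D5:**
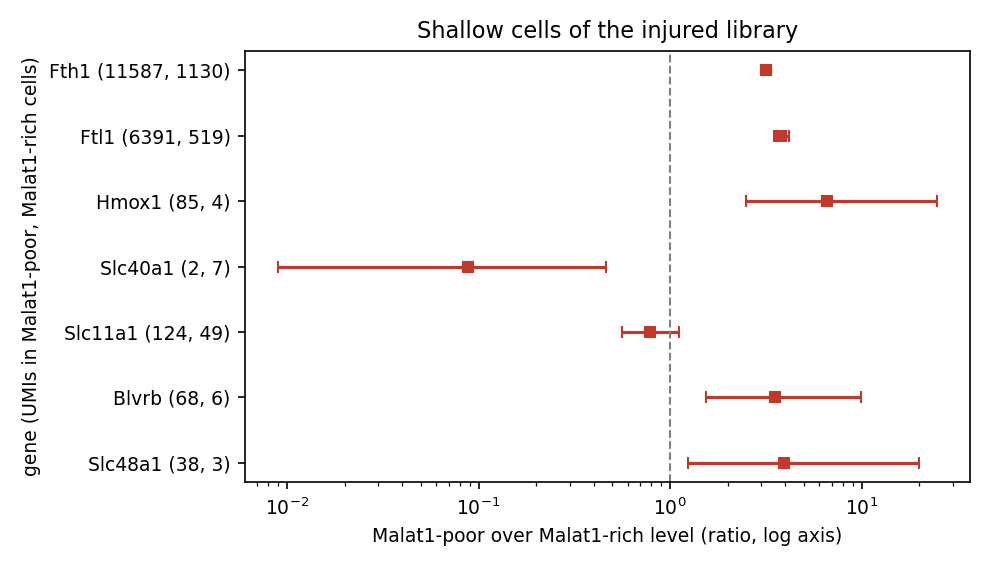
Level in shallow Malat1-poor over shallow Malat1-rich cells of the injured library for 7 members, as a ratio on a log axis with exact 95% intervals. The dashed line marks equal levels, and the UMIs in Malat1-poor and then Malat1-rich cells stand beside each name. Fth1, Ftl1, Hmox1, Blvrb and Slc48a1 lie right of the line, Slc40a1 left of it, and Slc11a1 spans it. Tfrc, with 0 UMIs in Malat1-rich cells, is not drawn.

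Other measures differed along with this divide. The median mitochondrial share was 0.503% in Malat1-poor, 10.7% in Malat1-rich and 2.36% in deep injured cells. In uninjured cells it was 8.11% in Malat1-poor, 3.11% in Malat1-rich and 3.82% in deep cells, the opposite order between the shallow classes. Median depth was 848 UMIs in Malat1-poor and 1668 in Malat1-rich injured cells. Oligodendrocyte markers summed to 7033 CPM in Malat1-poor and 4681 CPM in Malat1-rich injured cells. The part of RNA quality, depth and oligodendrocyte transcripts in the Malat1 contrast was not tested. In the uninjured library Malat1-poor over Malat1-rich ratios were 2.13 (1.82 to 2.51) for Fth1, 4.47 (2.69 to 7.78) for Ftl1 and 0.110 (0.00250 to 0.791) for Slc11a1, the last on 1 and 9 UMIs. Slc11a1 in Malat1-poor cells had 218 CPM after crush, against 38.5 CPM in uninjured nerves on 124 and 1 UMIs, and the interval of that ratio, 0.997 to 225, reaches 1.

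The members were also compared by depth within the injured library. Between injured cells of over 15000 UMIs and those of 600 to under 1000, the ratio was 0.874 (0.845 to 0.904) for Fth1, 0.971 (0.926 to 1.02) for Ftl1, 0.813 (0.553 to 1.24) for Hmox1, 0.941 (0.591 to 1.59) for Blvrb and 0.569 (0.312 to 1.14) for Slc48a1. Slc11a1 was higher in the deepest cells, with 293 CPM there and 159 CPM in the shallow ones, a ratio of 1.84 (1.25 to 2.81). Tfrc was lower in the deepest cells, with a ratio of 0.117 (0.0298 to 0.546) on 7 and 4 UMIs. Slc40a1 had a ratio of 1.74 (0.286 to 71.4) on 26 and 1 UMIs.

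A large part of the UMIs of the members came from the deepest cells, as for all genes. The deepest 73 injured cells held 56.2% of all injured UMIs, 59.2% of Fth1, 59.9% of Ftl1, 63.9% of Hmox1 and 62.1% of Slc11a1 UMIs. The other members lay under the share of all genes, with 53.8% of Tfrc, 52.1% of Blvrb, 49.4% of Slc48a1 and 45% of Slc40a1 UMIs. The deepest 5 uninjured cells held 44.9% of all uninjured UMIs, 41.6% of Fth1 and 46.7% of Ftl1 UMIs.

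Around the members, 58 other genes of iron and heme metabolism were examined, of which 36 were detected in 5% or more of either library's cells. Of these 36, 17 were higher and 9 were lower by the same 1.5-fold rule, with a median log2 ratio of 0.11. Among all 6680 genes detected in 5% or more of either library's cells 30.3% were higher and 25.3% were lower, and their median log2 ratio was 0.09. Of the 17 higher genes 7 had 0 and 3 had 1 uninjured UMI. For 1 of those 7, Alas1, the exact interval of the ratio lay above 1.

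Iron uptake and reduction genes went both ways, with 3 higher and 2 lower of 6. Trf, which encodes transferrin and is also an oligodendrocyte marker, had 2379 CPM after crush, against 1166 CPM in uninjured nerves, a ratio of 2.04 (1.68 to 2.51). Hfe, a partner of the transferrin receptor, had 38.9 CPM in the injured library and 0 UMIs in the uninjured one, and the interval of the ratio, from 0.912 upward, includes no difference. The endosomal reductase Steap3 had 19.7 CPM in the injured library and 0 UMIs in the uninjured one, which gives no readable fold. The lower genes were the metal importer Slc39a14 (ZIP14) and Slc22a17, a receptor for lipocalin 2. Slc39a14 had 13.5 CPM after crush, against 80.0 CPM in uninjured nerves (5.92-fold lower, 2.26 to 13.1, on 7 uninjured UMIs). Slc22a17 had 12.2 CPM after crush, against 68.6 CPM in uninjured nerves (5.64-fold lower, 1.96 to 13.2, on 6 uninjured UMIs).

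Of the 6 storage and sensing genes 2 were higher and 1 lower. The iron chaperones that load ferritin lay within 1.5-fold: Pcbp2 had 166 CPM after crush, against 206 CPM in uninjured nerves, and Pcbp1 had 109 CPM after crush, against 160.0 CPM in uninjured nerves. Fbxl5, which marks an iron regulatory protein for degradation, had 28.7 CPM after crush, against 11.4 CPM in uninjured nerves on 106 and 1 UMIs. Ncoa4, the receptor that carries ferritin to the lysosome, was the lower member, with 27.6 CPM after crush, against 57.1 CPM in uninjured nerves (2.07-fold lower, 0.659 to 4.99). Of the export list, ceruloplasmin (Cp), which oxidises exported iron, was lower, with 23.5 CPM after crush, against 114 CPM in uninjured nerves (4.86-fold lower, 2.25 to 9.37). A single uninjured cell held 5 of its 10 uninjured UMIs, and Heph and Hamp were at 0 in both libraries.

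Of the 3 mitochondrial iron genes 2 were higher, the importers Slc25a37 and Slc25a28 on 1 uninjured UMI each, and the scaffold Iscu was lower with 82.5 CPM after crush, against 149 CPM in uninjured nerves (1.80-fold lower, 0.948 to 3.13). Of 7 heme synthesis genes 2 were higher and 2 lower. Alas1, the first enzyme of the pathway in most tissues, had 93.3 CPM in the injured library (345 UMIs) and 0 UMIs in the uninjured one. That level was 2.72 times a floor of 3 counts over the uninjured library, and the interval of the ratio began at 2.20. Alad had 24.9 CPM in the injured library and 0 UMIs in the uninjured one. Ferrochelatase (Fech), the last enzyme, was 5.92-fold lower (2.26 to 13.1), with 13.5 CPM after crush, against 80.0 CPM in uninjured nerves, where 5 of 7 UMIs came from 1 cell.

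All 3 genes compared for heme uptake and breakdown were called higher, beside 30.3% of the 6680 genes, and for 2 of the 3 the interval includes no difference. Lrp1, a receptor for hemopexin-bound heme among other ligands, had 375 CPM after crush, against 217 CPM in uninjured nerves, a ratio of 1.73 (1.10 to 2.88). Hmox2, the constitutive heme oxygenase, had 101 CPM after crush, against 45.7 CPM in uninjured nerves, a ratio of 2.20 (0.852 to 8.12), and Blvra, the other biliverdin reductase, had 42.5 CPM after crush, against 22.9 CPM in uninjured nerves, a ratio of 1.86 (0.506 to 15.5). Cd163, the receptor for haemoglobin bound to haptoglobin, was outside the filter, with 4 injured UMIs and with 6 uninjured UMIs that all lay in 1 cell.

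Of 5 regulators 1 was higher and 2 were lower. Bach1, the heme-sensitive repressor of Hmox1 and the ferritin genes, was lower, with 62.7 CPM after crush, against 149 CPM in uninjured nerves (2.37-fold lower, 1.24 to 4.13), and 8 of its 13 uninjured UMIs lay in 1 cell. Nfe2l2, which encodes NRF2, their activator, had 200 CPM after crush, against 274 CPM in uninjured nerves, a ratio of 0.729 (0.486 to 1.14). Mafg, a partner of both, had 55.7 CPM after crush, against 57.1 CPM in uninjured nerves. Of 5 NRF2 targets outside iron handling 4 were called higher, beside the same 30.3%, and for Prdx1 and Gpx4 the interval lay above 1. Prdx1 had 611 CPM after crush, against 263 CPM in uninjured nerves, a ratio of 2.33 (1.55 to 3.68). Gpx4, the lipid peroxide reductase, had 471 CPM after crush, against 194 CPM in uninjured nerves, a ratio of 2.42 (1.51 to 4.17), and Txnrd1 had 73.8 CPM after crush, against 45.7 CPM in uninjured nerves, a ratio of 1.61 (0.624 to 5.97). Gclm, a subunit of the enzyme that starts glutathione synthesis, had 24.9 CPM in the injured library and 0 UMIs in the uninjured one, which gives no readable fold.

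The letters of the antioxidant response element, TGACNNNGC on either strand, were searched in RefSeq promoter windows from 250 bases before to 50 bases after the start of each gene (GRCm38.p6). The windows of Fth1, Ftl1, Slc11a1, Blvrb and Tfrc, 8 in all, held no match. Sequence outside these windows was not searched, so an element farther from the start would be missed. Of 32851 windows of all genes 12.4% held one. Hmox1, Slc40a1 and Slc48a1 were not analysed in this search.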

How the data were processed

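Digested optic nerve gave single cells for the droplet kit of 10x Genomics (3' ends, v2), per the labels' protocols. The deposited table gives UMI counts as whole numbers, not normalized, for 31053 gene rows and 778 cells, and its second line names the condition of every cell. Among tools named in the submitters' processing notes are Cell Ranger 1.3, Seurat 4.0.3 and bcl2fastq 2.17.1.14, with mm10 as the genome build. Which gene annotation they used is not stated there. Per the series' design text the authors limited cells to between 200 and 6500 genes, and the deposited cells had 226 to 6089. A UMI was present for 14428 rows. Names of 26 rows had become dates; these rows count in totals and were not compared. No doublet caller was run, and doublets were not removed.

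Counts were summed per library and given as CPM with exact Poisson intervals. Ratios carry exact conditional binomial intervals and shares Clopper-Pearson intervals, all at 95%. A fold given against 0 UMIs used a floor of 3 counts over the library, equal to 0.811 CPM for injured and 34.3 CPM for uninjured cells. Calls, log2 ratios and intervals kept the 0. The pseudocount of 10 CPM lies under the second floor, so calls on 0 or few uninjured UMIs can be overstated. The calls and the balance were tried on simulated counts with counting error only and no further spread between cells. Changes were set only in genes with at least 10 expected uninjured UMIs, so the trial does not cover the scarcest members. Members and gene lists, and the classes by depth and Malat1, were chosen with earlier results of these data known. Genes named besides the members are the up to 3 with most injured UMIs of each list and the 5 that correlate best with Fth1, Ftl1 and Hmox1; a gene named by this rule is not reported here. Ncoa4, Cp, Fech, Cd163, Slc39a14, Slc22a17, Gclm and the genes that correlate with the Fth1 share were chosen after their values were seen. Alternatives were other pseudocounts and scalings, equal weights, thinning, left-out cells and other divides. No test between the groups was made because each group was 1 library. Values were computed with Python 3.11.15, numpy 2.4.6, scipy 1.17.1, pandas 2.3.3 and matplotlib 3.10.9.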

Additional observations from a re-analysis of the deposited data

How the results depend on the processing

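Ftl1 was higher in the injured library under all 11 alternatives tried, with log2 ratios of 1.85 to 2.22, and Fth1 had log2 ratios of 0.24 to 0.84, past 1.5-fold in cells not rich in oligodendrocyte markers (0.84) and in cells of 600 to under 1000 UMIs (0.69), both chosen after seeing the data. The values without the haemoglobin-rich cell within a class or beside the oligodendrocyte filter were also chosen then, and with both left out the log2 ratio of Fth1 was 0.60. The number of higher members was 4 with each cell thinned to 500 UMIs in a single random draw. It was 6 in cells of 600 to under 1000 UMIs, where several uninjured counts are 0. The median log2 ratio of all genes compared was 0.16 thinned and 0.67 in cells of 600 to under 1000 UMIs. The share of all genes called higher was not computed in either setting. The number of lower members was 0 with a pseudocount of 50 CPM and in cells of 600 to under 1000 UMIs, and 1 with equal weight of cells, without the haemoglobin-rich cell, without the 2 deepest uninjured cells, in cells under 5000 UMIs and without cells rich in oligodendrocyte markers. Slc48a1 changed sign, with log2 ratios of 0.14 with equal weights, 0.083 without the haemoglobin-rich cell and 3.01 in cells of 600 to under 1000 UMIs, and Tfrc did so at 1.75 in the last setting. Both had 0 uninjured UMIs there. The median log2 ratio of the members stayed between -0.03 and 0.86 over 12 alternatives. In the settings that gave these ends, the median of all genes compared was -0.07 and 0.67. The injured Fth1 share, 64.2%, left its narrow counting interval under 7 alternatives: 64.8% and 65.0% as means over cells with at least 20 and at least 5 ferritin UMIs, 65.3% thinned, 64.6% without the 2 deepest cells of each library, 64.8% in cells under 5000 UMIs, 63.7% without cells rich in oligodendrocyte markers and 66.6% in cells of 600 to under 1000 UMIs. The uninjured share, 85.2%, was 81.9% and 81.6% in these last 2 settings. Over 9 alternatives each, the injured share was at most 66.6% and the uninjured share at least 81.6%. Of 132 values of single members and classes 105 stayed within their counting interval, 23 left it and 4 changed sign. With deep cells counted from 10000 UMIs the 1 uninjured deep cell was the haemoglobin-rich one, and its Fth1 share was 50%. In Malat1-rich cells that divide gave a log2 ratio of 0.95 for Ftl1, against 1.97 with deep cells from 5000 UMIs. For Fth1 it gave -0.78, past 1.5-fold lower. In Malat1-rich cells the log2 ratio of Fth1 was -0.02 with the divide at 0.5% and -0.64 at 2%, against -0.43 at 1%. The causes were not tested. No paired analysis was possible because each group was 1 library. Uninjured counts of 1 to 19 UMIs limit the 6 scarcer members.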
